A study of Mus musculus with 3 samples.

Results

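Wnt signalling was followed through 47 of the 17992 gene symbols counted in 3 mouse brain libraries. The genes were chosen by symbol: the Wnt ligands, the frizzled receptors (Fzd) with the co-receptors Lrp5 and Lrp6, the secreted Sfrp and Dkk proteins, Dvl, Axin, Apc, Gsk3b and Ctnnb1, and the transcription factors Lef1 and those whose symbols begin with Tcf7. This gave 16 ligands, 13 symbols of the receptor group, 6 secreted antagonists, 8 cytoplasmic transducers and 4 transcription factors. The receptor group held 10 frizzled genes, 2 co-receptors and Fzd10os, a transcript on the strand opposite Fzd10. The strand setting of the counting is not given in the sources used here, so the reads of Fzd10 and Fzd10os cannot be told apart. A further 5 symbols that fit the rule in the reference gene names (Dkk1, Dkk4, Wnt3a, Wnt8a and Wnt8b) were not analysed here.

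All 3 libraries came from brain of adult wild-type C57BL/6 mice. The sham library was the control for surgery. The vehicle library represents occlusion of the middle cerebral artery, a mouse model of ischaemic stroke. Both carry the label of no treatment. The AGNHW library came from mice given AGNHW, an agent that the labels do not spell out, at 3 mg per g per day, and the labels do not repeat the occlusion for it. No source used here gives the brain region, the time after occlusion or the number of mice behind each library. Each group had 1 library, so no test of the conditions could be made, and "higher" or "lower" describes these libraries only. In bulk tissue, fewer cells of a type and less RNA per cell cannot be told apart.

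Wnt proteins are secreted lipid-modified ligands that bind a frizzled receptor together with Lrp5 or Lrp6. Without a ligand, a destruction complex built on Axin and Apc lets the kinase Gsk3b mark beta-catenin (Ctnnb1) for breakdown. With a ligand, Dvl recruits that complex to the membrane, beta-catenin accumulates, and it drives target genes through the TCF/LEF factors. In the adult brain the pathway is known for roles in hippocampal neurogenesis, in the blood-brain barrier and at synapses, and a branch that does not use beta-catenin orients cells and axons.

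Levels are given as CPM (counts scaled to a common library total) adjusted by TMM factors (trimmed mean of M-values). Ratios are of these CPM, with a 95% interval for counting error alone. The size rule asked for a ratio of at least 1.5 either way, a mean of at least 1 CPM and an interval that excluded 1. Of the 47 members, 44 reached a mean of 1 CPM, and none was at 0 in any library. The other 3, with 4 to 18 counts per library, were Wnt11, Wnt16 and Dkk2.

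The start regions of 4 members taken up below are shown first. Ctnnb1 and Gsk3b were lower together in vehicle, Lef1 was higher in AGNHW than in vehicle, and Axin2 is the textbook feedback target of the pathway. After correction for transcript length and GC content, described below, Ctnnb1 still passed the size rule, and Gsk3b and Lef1 did not. Each line gives the 250 bases before the first listed transcription start in RefSeq on build GRCm38.p6, read on the plus strand, which is the coding strand of all 4 genes. The windows are chr9:120933150-120933399 for Ctnnb1 (the first of 2 listed starts), chr16:38088751-38089000 for Gsk3b, chr3:131110047-131110296 for Lef1 (the first of 4 listed starts) and chr11:108920099-108920348 for Axin2. Capitals mark matches, on either strand, to the letters CTTTGA and CTTTGT (cores of the TCF/LEF site; TCAAAG and ACAAAG on the other strand) or GGGCGG (the GC box of Sp factors; CCGCCC on the other strand).
Ctnnb1: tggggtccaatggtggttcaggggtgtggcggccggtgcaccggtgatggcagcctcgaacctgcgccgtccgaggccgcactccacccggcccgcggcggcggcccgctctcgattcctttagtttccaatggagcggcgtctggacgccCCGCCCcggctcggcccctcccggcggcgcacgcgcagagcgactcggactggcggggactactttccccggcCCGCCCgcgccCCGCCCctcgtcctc
Gsk3b: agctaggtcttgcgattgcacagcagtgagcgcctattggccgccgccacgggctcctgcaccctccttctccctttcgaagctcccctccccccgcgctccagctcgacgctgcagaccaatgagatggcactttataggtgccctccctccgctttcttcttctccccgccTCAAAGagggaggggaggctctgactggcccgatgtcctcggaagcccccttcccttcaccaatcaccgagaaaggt
Lef1: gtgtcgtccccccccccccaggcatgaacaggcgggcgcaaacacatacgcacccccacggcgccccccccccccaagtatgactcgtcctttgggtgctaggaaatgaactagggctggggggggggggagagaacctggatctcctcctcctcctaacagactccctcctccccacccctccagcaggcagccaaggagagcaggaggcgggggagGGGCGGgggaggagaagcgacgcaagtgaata
Axin2: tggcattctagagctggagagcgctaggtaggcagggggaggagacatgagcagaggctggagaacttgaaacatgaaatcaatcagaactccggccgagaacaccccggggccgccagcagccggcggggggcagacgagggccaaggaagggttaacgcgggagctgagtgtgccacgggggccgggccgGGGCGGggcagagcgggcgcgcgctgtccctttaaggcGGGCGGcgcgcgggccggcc
The letters TCAAAG occurred 1 time, in Gsk3b, and neither CTTTGT nor ACAAAG occurred in these 4 windows. The GC box letters occurred in 3 places in Ctnnb1, 2 in Axin2, 1 in Lef1 and 0 in Gsk3b. Start regions were listed for 32 of the 47 members, in 41 windows. CTTTGA or its complement was in 5 of these 41, 12.2%, against 13.8% of all 32851 windows of this length. CTTTGT or its complement was in 6, 14.6%, against 16.5% of all. The GC box letters, all of them G or C, were in 32, 78.0%, against 32.7% of all. The part of base composition in this share was not tested. Guanine and cytosine made up 74.8% of the Ctnnb1 window, 69.2% of Axin2, 66.4% of Lef1 and 62.0% of Gsk3b, against a median of 52.4% over all windows. A match is a description of the letters and not evidence of binding.

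**Figure D1:**
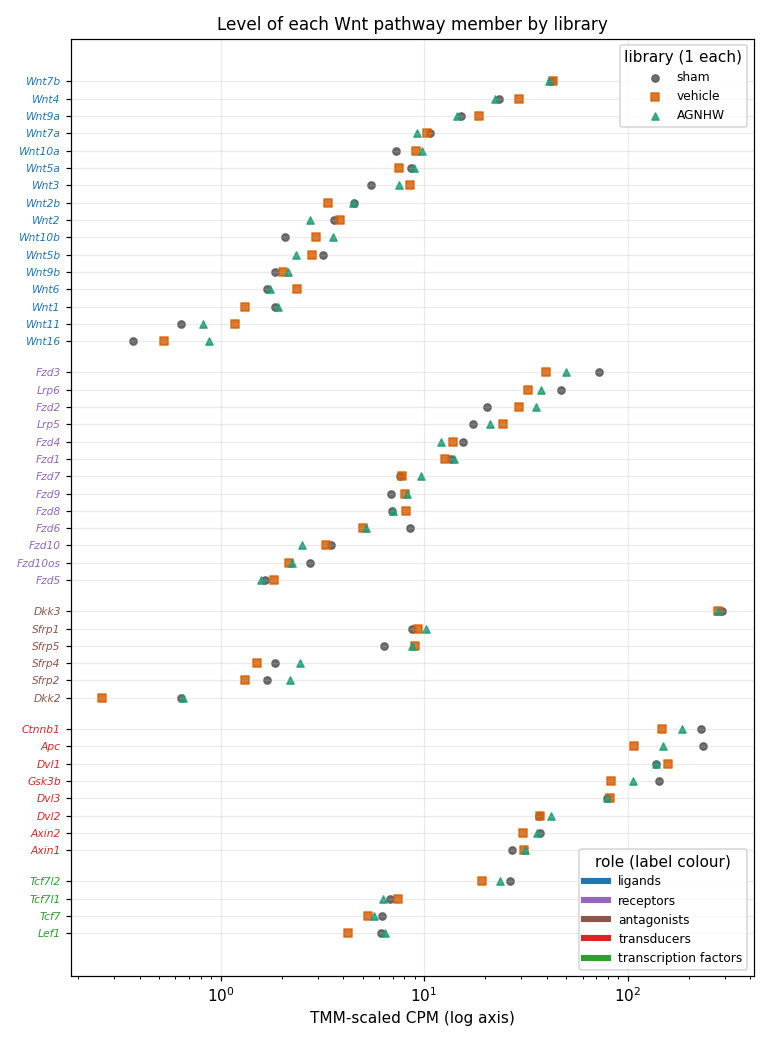
Level of each of the 47 Wnt pathway members as TMM-scaled CPM on a log axis, with 1 point per library (circle, sham; square, vehicle; triangle, AGNHW) and label colours for the role. The Dkk3, Ctnnb1, Apc, Gsk3b and Dvl1 levels are the highest, most ligands lie under 10 CPM, and in the transducer block the vehicle squares of Ctnnb1, Apc and Gsk3b lie left of the sham circles. Levels of different genes on this axis also differ by transcript length.

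The libraries held 15718594 (vehicle) to 18286151 (sham) counts. Between them, the log2 ratio of a gene followed its transcript length and GC content, which together accounted for 46.9% of its variance over 9941 genes for vehicle over sham, 26.8% for AGNHW over vehicle and 38.0% for AGNHW over sham. Long transcripts had lower ratios in vehicle over sham. Results below are therefore also given after correction for this trend. With 1 library per group, the trend and the condition cannot be told apart. The markers of the pituitary, with 10 of 12 counted, summed to 5.58, 3751 and 5.80 CPM in sham, vehicle and AGNHW, with Gh, Prl, Ghrhr and Tbx19 at 0 in sham and Cga, Pitx1 and Tbx19 at 0 in AGNHW. Those of red blood cells, 5 of 7 counted, summed to 52.8, 163 and 65.1 CPM, and those of the choroid plexus, 10 of 10 counted, to 547, 976 and 666 CPM. The sums of the 6 general neuronal markers were 5117, 5091 and 4972 CPM and of the 8 astrocyte markers 3376, 3406 and 3416 CPM. The part of these tissues in the results was not tested. Neuronal markers were thus present in each library, as the label brain states.

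Between vehicle and sham, 6 members passed the size rule. Apc, Gsk3b and Ctnnb1, of the destruction complex and its substrate, and the receptors Fzd3 and Fzd6 were lower in vehicle, and the ligand Wnt3 was higher, while the other 38 members compared did not pass the size rule. Of all 15558 genes compared, 14.2% were lower and 8.66% higher, so the members' shares of 11.4% lower and 2.27% higher were both under the background. Their median log2 ratio was -0.016, against 0.012 for all genes, and 22 members had a ratio above 1 and 22 below it. The corrected median was -0.092, against -0.018 for all genes, with 18 members above 1 and 25 below it. After correction, Ctnnb1, Wnt1 and Wnt2b were lower and Lrp5 higher among 43 members with a known transcript length, where 7.48% of 15234 genes were lower and 4.32% higher. Ctnnb1 alone passed as lower both ways. With library totals in place of TMM, 0 members were higher and 7 lower, since Wnt3 no longer passed while Lrp6 and Lef1 did, and the genes of the whole set split into 890 higher and 2836 lower in place of 1348 and 2207.

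AGNHW against vehicle, which shares the vehicle library with the first comparison, had 1 member past the size rule. This was Lef1, higher in AGNHW, where 4.01% of all genes were higher and 2.56% lower, against 2.27% and 0% of the members. With library totals in place of TMM, Sfrp4 passed as well, and all genes split into 808 higher and 309 lower in place of 624 and 398. The median log2 ratio of the members was 0.057 (all genes 0.002), with 26 ratios above 1 and 18 below it. The corrected median was 0.095 (all genes 0.013), with 27 ratios above 1 and 16 below it. After correction Lef1 fell short of the rule and Sfrp2 passed as higher, against 3.4% of all genes higher and 1.52% lower. AGNHW against sham had Fzd2 and Wnt10b higher and Apc and Fzd6 lower, each direction 4.55% of the members, against 3.32% of all genes higher and 5.47% lower. Its median was -0.0099 (all genes -0.00066), or -0.084 corrected (all genes -0.0018). After correction Fzd2 and Wnt10b were higher and Fzd6, Fzd10 and Wnt5b lower, against 2.6% and 3.31%. With 0 to 5 members in each direction, these shares set nothing apart about the pathway as a whole.

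**Figure D2:**
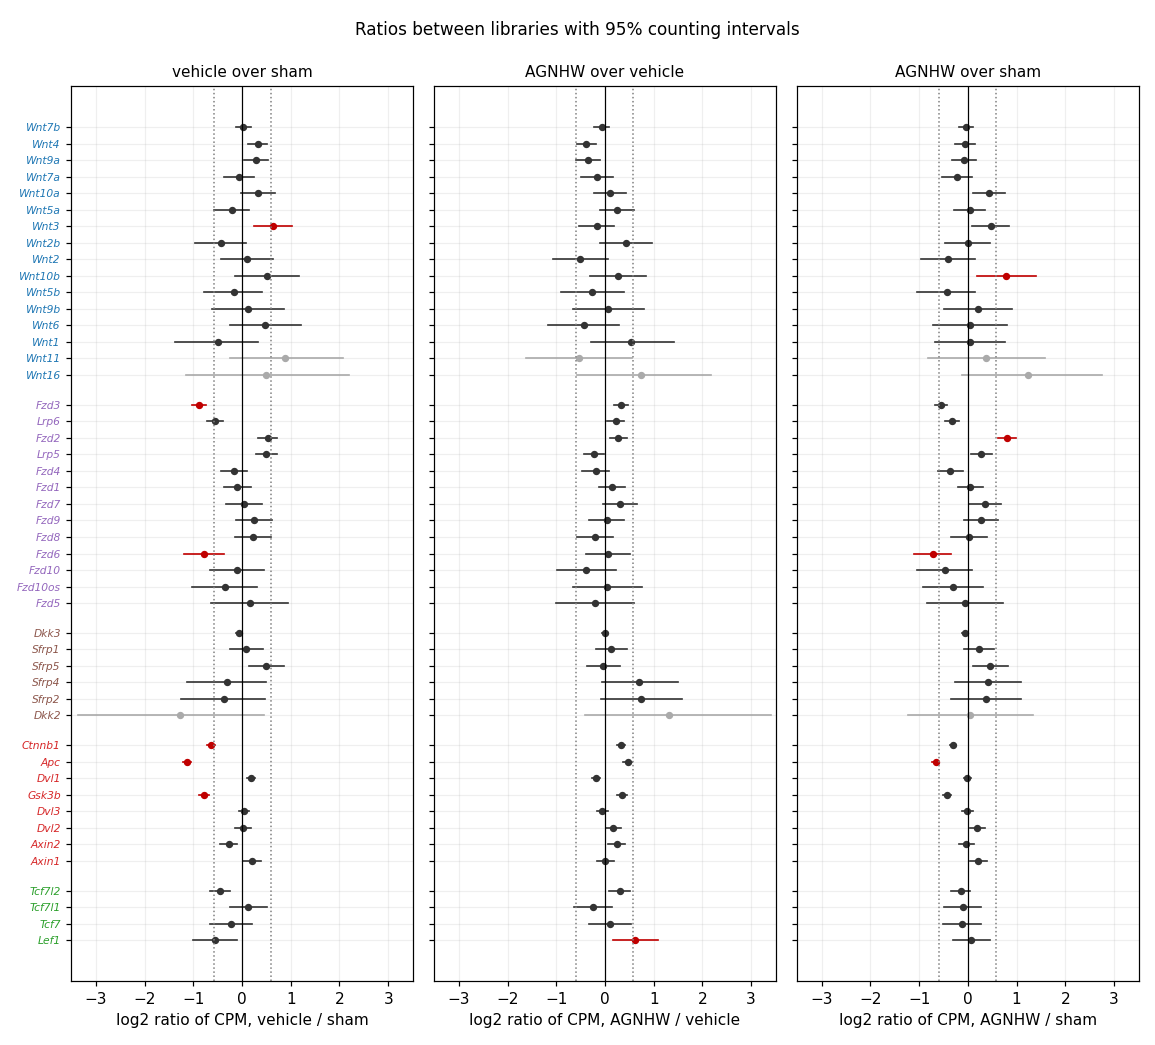
Log2 ratio of TMM-scaled CPM of each member in the 3 comparisons (points) with its 95% counting interval (bars). Red marks members past the size rule, grey those under a mean of 1 CPM, and the dotted lines stand at a 1.5-fold ratio either way. Red points lie mainly left of 0 in vehicle over sham, and Lef1 is the 1 red point in AGNHW over vehicle.

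Apc, a large scaffold of the complex and a tumour suppressor, had 4434, 1636 and 2718 counts in sham, vehicle and AGNHW (236, 108 and 149 CPM). Its level was highest in sham and lowest in vehicle, with AGNHW between them. It was 2.19-fold lower (2.07 to 2.32) in vehicle than in sham and 1.58-fold lower (1.51 to 1.66) in AGNHW than in sham, while AGNHW over vehicle gave 1.38 (1.30 to 1.47), short of the rule. Its longest transcript, 12811 nt, is the longest among the members, and after correction the ratios were 0.713 (0.673 to 0.754), 0.817 (0.778 to 0.857) and 1.15 (1.08 to 1.22), so that neither call was kept.

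Gsk3b, the kinase that marks beta-catenin for breakdown, had 2689, 1265 and 1940 counts in sham, vehicle and AGNHW (143, 83.2 and 106 CPM). The order of the libraries was the same as for Apc. It was 1.72-fold lower (1.61 to 1.84) in vehicle than in sham, with 1.28 (1.19 to 1.37) for AGNHW over vehicle and 0.743 (0.701 to 0.788) for AGNHW over sham. After correction, vehicle over sham was 0.819 (0.766 to 0.876), inside the 1.5-fold limit. Its paralogue Gsk3a, which acts on the same substrates and is not among the members, had 3442, 3290 and 3416 counts. Gsk3b therefore made up 43.9% (42.6 to 45.1) of the counts of the pair in sham, 27.8% (26.5 to 29.1) in vehicle and 36.2% (34.9 to 37.5) in AGNHW. These shares need no scaling between libraries, and their intervals, which cover counting error only, do not overlap. How often gene pairs in general stand apart in this way was not tested. They still hold the differences of the pair in length and in GC content, 46.1% for Gsk3b and 59.8% for Gsk3a. After correction, vehicle over sham was 0.897 (0.855 to 0.941) for Gsk3a, beside 0.819 for Gsk3b.

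Ctnnb1, which encodes beta-catenin, had 4310, 2240 and 3384 counts in sham, vehicle and AGNHW (229, 147 and 185 CPM). It too was highest in sham, and it was 1.56-fold lower (1.48 to 1.64) in vehicle, with 1.26 (1.19 to 1.33) for AGNHW over vehicle and 0.809 (0.773 to 0.846) for AGNHW over sham. Its longest transcript, 3623 nt, is of middle length among the members. Correction left the vehicle over sham ratio at 0.634 (0.603 to 0.668), 1.58-fold lower (1.5 to 1.66). The corrected AGNHW over vehicle ratio was 1.25 (1.19 to 1.32), short of the rule. Ctnnb1 encodes a protein that also joins cadherins to the cytoskeleton, and the level of its RNA does not give the amount of the signalling pool of the protein.

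Of the axin scaffolds, neither passed the rule. Axin2, which beta-catenin itself induces, had 695, 465 and 658 counts in sham, vehicle and AGNHW (36.9, 30.6 and 36.0 CPM), the lowest in vehicle. Its ratios were 0.828 (0.734 to 0.932) for vehicle over sham, 1.18 (1.04 to 1.33) for AGNHW over vehicle and 0.976 (0.876 to 1.09) for AGNHW over sham, none past the rule, and the corrected vehicle over sham ratio was 0.766 (0.680 to 0.863). Axin1, the axin present in most cells, lay between 473 and 570 counts, with ratios from 1.0 to 1.16. Axin2 made up 57.8% (54.9 to 60.6) of the counts of the pair in sham, 49.6% (46.3 to 52.8) in vehicle and 53.6% (50.7 to 56.4) in AGNHW. The sham and vehicle counting intervals do not overlap, and the AGNHW interval overlaps both.

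The dishevelled genes, whose proteins carry the signal from the receptor, were near level in all libraries. Dvl1 had 138 CPM in sham, 157 in vehicle and 137 in AGNHW, with ratios of 1.14 (1.07 to 1.20), 0.874 (0.826 to 0.925) and 0.993 (0.940 to 1.05) for vehicle over sham, AGNHW over vehicle and AGNHW over sham. Dvl3 had 79.3 CPM in sham, 81.7 in vehicle and 78.8 in AGNHW, with ratios from 0.964 to 1.03. The ratios of Dvl2 lay between 1.02 and 1.15. Their summed level was 254 CPM in sham, 276 in vehicle and 258 in AGNHW. Per kilobase of transcript, averaged over the libraries, the order of the transducers was Ctnnb1 (51.7 CPM per kb), Dvl1 (30.2), Dvl3 (20.1), Gsk3b (13.3), Apc (12.8), Axin2 (8.10), Axin1 (7.88) and Dvl2 (7.67). The ranges of the last 3 over the libraries overlap, as do those of Gsk3b and Apc. Summed over all 8 transducers without correction, vehicle over sham gave 0.730 (0.712 to 0.748), and Apc, Ctnnb1 and Gsk3b hold most of these counts.

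Among the receptors, Fzd3 and Fzd6, relatives known for planar cell polarity and axon guidance, were the 2 that passed as lower in vehicle. Fzd3 had 1368, 602 and 908 counts in sham, vehicle and AGNHW (72.7, 39.6 and 49.7 CPM). It was 1.84-fold lower (1.67 to 2.02) in vehicle than in sham, with 1.26 (1.13 to 1.39) for AGNHW over vehicle and 0.684 (0.628 to 0.744) for AGNHW over sham, the last just inside the limit. Its longest transcript, 12734 nt, is nearly as long as that of Apc, and after correction vehicle over sham was 0.935 (0.848 to 1.03).

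Fzd6 had 161, 76 and 95 counts in sham, vehicle and AGNHW (8.56, 5.0 and 5.20 CPM), high in sham and similar in the other libraries. It was 1.71-fold lower (1.30 to 2.28) in vehicle than in sham and 1.64-fold lower (1.27 to 2.14) in AGNHW than in sham, and AGNHW over vehicle gave 1.04 (0.762 to 1.43). After correction the AGNHW over sham ratio, 0.651 (0.50 to 0.844), still passed, and that of vehicle over sham, 0.672 (0.504 to 0.888), lay just inside the limit. Fzd6 is among the frizzled genes of brain endothelium. The 10 endothelial markers, all counted and none at 0, summed to 413, 507 and 464 CPM in sham, vehicle and AGNHW, with 2 higher and 1 lower in vehicle than in sham. The correction left 0 higher and 1 lower, and their corrected median log2 ratio was -0.049. Their part in the level of Fzd6 was not tested.

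Fzd2, a receptor of both branches of the pathway, was higher in the other libraries than in sham. It had 383, 445 and 646 counts in sham, vehicle and AGNHW (20.4, 29.3 and 35.4 CPM), lowest in sham and highest in AGNHW. It was 1.74-fold higher (1.53 to 1.98) in AGNHW than in sham, and after correction 1.60-fold higher (1.41 to 1.82). Vehicle over sham was 1.44 (1.25 to 1.65) and AGNHW over vehicle 1.21 (1.07 to 1.37), both short of the rule. In AGNHW over sham it was the member with the highest log2 ratio, 0.79, among those compared.

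Shares of the frizzled counts need no scaling between libraries, but they still hold the differences in length, 12734 nt for Fzd3 and 3663 nt for Fzd2. They also hold those in GC content, 40.3% for Fzd3 and 56.6% for Fzd2. Fzd3 made up 46.2% (44.4 to 48.0) of all frizzled counts in sham, 30.6% (28.5 to 32.6) in vehicle and 34.2% (32.4 to 36.0) in AGNHW. Fzd2 made up 12.9% (11.8 to 14.2), 22.6% (20.8 to 24.5) and 24.3% (22.7 to 26.0) in the same order. For both genes the sham interval, which covers counting error only, stands apart from the other 2. The shares are not corrected for length or GC content, while the corrected vehicle over sham ratio of Fzd3 was 0.935 (0.848 to 1.03), against 0.544 before correction. That of Fzd2 was 1.24 (1.08 to 1.42), against 1.44 before correction. Per kilobase, averaged over libraries, Fzd2 led with 7.73 CPM per kb, followed by Fzd3 (4.24), Lrp6 (4.16), Fzd9 (3.37) and Fzd1 (3.20), and in sham Fzd3 (5.71 CPM per kb) and Fzd2 (5.56) were nearly level.

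**Figure D3:**
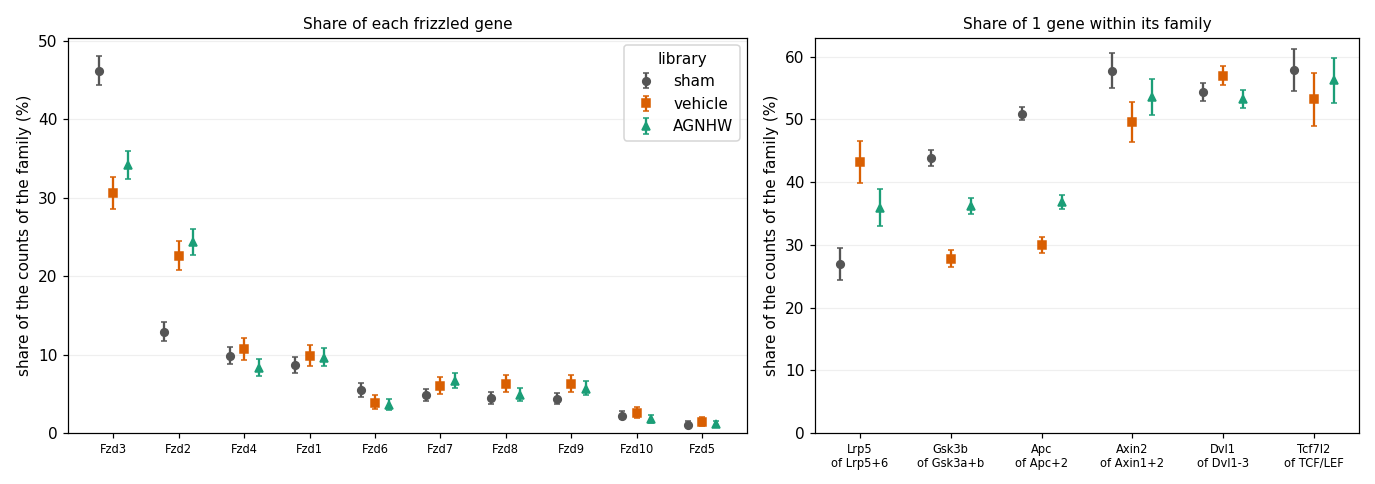
Left, share of each of 10 frizzled genes in the summed frizzled counts of a library (percent); right, share of 1 gene in the counts of its family. Points are libraries (circle, sham; square, vehicle; triangle, AGNHW) and bars are exact 95% binomial intervals, which cover counting error only. Fzd3, Gsk3b and Apc hold a smaller share in vehicle than in sham, and Fzd2 and Lrp5 a larger one. The shares are not corrected for length or GC content.

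The co-receptors Lrp5 and Lrp6, which carry the signal of the beta-catenin branch together with a frizzled, had ratios on opposite sides of 1 in vehicle over sham. Lrp6 had 887, 490 and 684 counts in sham, vehicle and AGNHW (47.1, 32.2 and 37.5 CPM), and its vehicle over sham ratio of 0.683 (0.611 to 0.764) fell just short of the rule. Lrp5 had 327, 373 and 383 counts in sham, vehicle and AGNHW (17.4, 24.5 and 21.0 CPM), with a vehicle over sham ratio of 1.41 (1.21 to 1.64). Both transcripts are long, 9368 nt for Lrp6 and 8893 nt for Lrp5, but their GC contents differ, 46.0% and 54.7%. After correction the vehicle over sham ratio of Lrp6 was 0.982 (0.877 to 1.1) and Lrp5 passed as 1.55-fold higher (1.33 to 1.80). Lrp5 made up 26.9% (24.5 to 29.5) of the counts of the pair in sham, 43.2% (39.9 to 46.6) in vehicle and 35.9% (33.0 to 38.9) in AGNHW. None of these intervals, which cover counting error only, overlap. These shares still hold the difference in GC content. For AGNHW over vehicle, the ratios were 0.855 (0.740 to 0.989) for Lrp5 and 1.16 (1.03 to 1.31) for Lrp6, and for AGNHW over sham 1.21 (1.04 to 1.40) and 0.795 (0.718 to 0.879).

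The other receptor symbols did not pass the size rule in any comparison without correction. Their vehicle over sham ratios ran from 0.785 for Fzd10os to 1.18 for Fzd9, with Fzd4, Fzd1, Fzd10, Fzd7, Fzd5 and Fzd8 between them. Fzd4, the receptor that norrin uses in vessels, had 292, 210 and 221 counts and an AGNHW over sham ratio of 0.780 (0.652 to 0.932). Fzd10 had 66 counts in sham, 50 in vehicle and 46 in AGNHW and passed as 1.54-fold lower (1.04 to 2.29) in AGNHW than in sham after correction alone, and Fzd10os had 52, 33 and 41. The mean level of Fzd10, 3.10 CPM, lies under the 10 CPM asked of the genes that gave the trend.

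Among the ligands, Wnt7b, Wnt4 and Wnt9a were the most abundant per kilobase, at 12.4, 5.95 and 4.85 CPM per kb. Wnt7b, which with Wnt7a signals to brain endothelium, had 42.2 CPM in sham, 43.1 in vehicle and 41.2 in AGNHW. It was level across the libraries, with ratios from 0.957 to 1.02, and it held 31.8% (30.0 to 33.7) of all ligand counts in sham, 29.4% (27.5 to 31.3) in vehicle and 30.7% (28.9 to 32.6) in AGNHW. Wnt4 had 23.3 CPM in sham, 29.2 in vehicle and 22.3 in AGNHW, highest in vehicle, with 1.25 (1.09 to 1.43) for vehicle over sham and 0.765 (0.667 to 0.877) for AGNHW over vehicle. Wnt9a had 15.3 CPM in sham, 18.5 in vehicle and 14.5 in AGNHW, also highest in vehicle, with 1.22 (1.03 to 1.44) and 0.783 (0.659 to 0.929). Neither passed the rule.

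Wnt3, a ligand of the beta-catenin branch studied in hippocampal neurogenesis, had 103, 129 and 138 counts in sham, vehicle and AGNHW (5.47, 8.48 and 7.56 CPM). It was lowest in sham and 1.55-fold higher (1.19 to 2.03) in vehicle, with 1.38 (1.06 to 1.80) for AGNHW over sham and 0.891 (0.696 to 1.14) for AGNHW over vehicle. The call was lost after correction, at 1.37 (1.05 to 1.79), and with library totals in place of TMM. Wnt10b, another ligand of that branch, had 39, 45 and 65 counts in sham, vehicle and AGNHW (2.07, 2.96 and 3.56 CPM), lowest in sham and highest in AGNHW. It was 1.72-fold higher (1.14 to 2.62) in AGNHW than in sham, and 1.59-fold higher (1.05 to 2.43) after correction, with 1.43 (0.909 to 2.25) for vehicle over sham.

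The ligands Wnt2b, Wnt1 and Wnt5b passed only after correction. Their mean levels, 4.12, 1.70 and 2.79 CPM, lie under the 10 CPM asked of the genes that gave the trend. The corrected intervals hold no error of that fit. Wnt2b, a ligand of the cortical hem in the embryo, had 85 counts in sham, 51 in vehicle and 82 in AGNHW, and its vehicle over sham ratio was 0.742 (0.514 to 1.06), or 0.622 (0.431 to 0.891) corrected. Wnt1, a midbrain and hindbrain patterning ligand, had 35 counts in sham, 20 in vehicle and 35 in AGNHW, with 0.707 (0.387 to 1.26), or 0.544 (0.297 to 0.969) corrected. Wnt5b had 60 counts in sham, 43 in vehicle and 43 in AGNHW, with an AGNHW over sham ratio of 0.738 (0.487 to 1.11), or 0.644 (0.425 to 0.969) corrected. The 11 meningeal fibroblast markers, all counted, summed to 97.3, 91.4 and 106 CPM in sham, vehicle and AGNHW, and 3 of them were lower and 1 higher in vehicle than in sham. After correction 0 were higher and 2 lower in vehicle than in sham, with a median log2 ratio of -0.066. Their uncorrected sum, like the level of Wnt2b, was lowest in vehicle, and their part in the level of Wnt2b was not tested.

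The remaining ligands compared, Wnt2, Wnt5a, Wnt6, Wnt7a, Wnt9b and Wnt10a, did not pass in any comparison. Wnt5a, the main ligand of the branch without beta-catenin, had 163, 114 and 162 counts and ratios from 0.865 to 1.18. The summed ligand level was 133 CPM in sham, 147 in vehicle and 134 in AGNHW, with a vehicle over sham ratio of 1.1 (1.04 to 1.17) and an AGNHW over vehicle ratio of 0.915 (0.863 to 0.969). The summed frizzled level was lowest in vehicle, at 157 CPM in sham, 129.5 in vehicle and 146 in AGNHW, with ratios of 0.824 (0.778 to 0.872) and 1.12 (1.06 to 1.19). These sums are led by Wnt7b and by Fzd3, and they are not corrected for length or GC content. Corrected vehicle over sham ratios were 0.850 (0.765 to 0.943) for Wnt7b and 0.935 (0.848 to 1.03) for Fzd3.

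Of the secreted antagonists, which bind Wnts or Lrp5 and Lrp6, Dkk3 held nearly all counts. It is a divergent Dickkopf protein of neurons, whose action on Wnt signalling is less settled than that of its relatives. It had 292 CPM in sham, 279 in vehicle and 279 in AGNHW, or 84.3 CPM per kb on average, the highest level per length among the members, and its ratios lay between 0.953 and 0.999. Sfrp5 had 120 counts in sham, 137 in vehicle and 160 in AGNHW, with 1.41 (1.1 to 1.82) for vehicle over sham and 1.37 (1.08 to 1.76) for AGNHW over sham, both short of the rule. Sfrp1 had 165 counts in sham, 142 in vehicle and 187 in AGNHW, with ratios from 1.06 to 1.17.

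Sfrp2 and Sfrp4 were sparse and lowest in vehicle. Sfrp2 had 32 counts in sham, 20 in vehicle and 40 in AGNHW, with 1.67 (0.951 to 3.01) for AGNHW over vehicle, an interval that holds 1, and 1.87 (1.07 to 3.37) after correction, which passed. The mean level of Sfrp2, 1.74 CPM, lies under the 10 CPM asked of the genes that gave the trend. Sfrp4 had 35 counts in sham, 23 in vehicle and 45 in AGNHW, with 1.63 (0.965 to 2.82). Its ratio passed with library totals in place of TMM. At these depths, the uncorrected AGNHW over vehicle intervals of Sfrp2 and Sfrp4 held 1 under TMM scaling.

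All 4 TCF/LEF factors, through which beta-catenin acts on genes, were measured. Tcf7l2, the most abundant per kilobase (6.22 CPM per kb) and a factor known from thalamic neurons and the oligodendrocyte lineage, had 495, 293 and 433 counts in sham, vehicle and AGNHW (26.3, 19.3 and 23.7 CPM). Its vehicle over sham ratio was 0.732 (0.632 to 0.848) and its AGNHW over vehicle ratio 1.23 (1.06 to 1.43), both short of the rule. The 12 thalamic markers, all counted and none at 0, summed to 610.1, 549 and 574 CPM in sham, vehicle and AGNHW, and none of them passed in any comparison. The 8 oligodendrocyte markers, all counted and none at 0, summed to 7328, 9515 and 8917 CPM, with 1 higher and 1 lower in vehicle than in sham and a corrected median log2 ratio of -0.055. Their part in the level of Tcf7l2 was not tested.

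Lef1, also a target of the pathway, had 116, 64 and 118 counts in sham, vehicle and AGNHW (6.16, 4.21 and 6.46 CPM). It was low in vehicle and near level in the other libraries. Vehicle over sham was 0.683 (0.495 to 0.934), just short of the rule, and Lef1 was 1.54-fold higher (1.12 to 2.12) in AGNHW than in vehicle, where the interval reaches close to 1. AGNHW over sham was 1.05 (0.804 to 1.37). After correction the AGNHW over vehicle ratio was 1.44 (1.05 to 1.98) and no longer passed. Tcf7 had 117 counts in sham, 81 in vehicle and 104 in AGNHW and Tcf7l1, which often represses targets, 128 counts in sham, 113 in vehicle and 115 in AGNHW, with vehicle over sham ratios of 0.857 (0.637 to 1.15) and 1.09 (0.840 to 1.42). After correction, all 4 factors had vehicle over sham ratios under 1, from 0.725 to 0.885, and none passed.

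**Figure D4:**
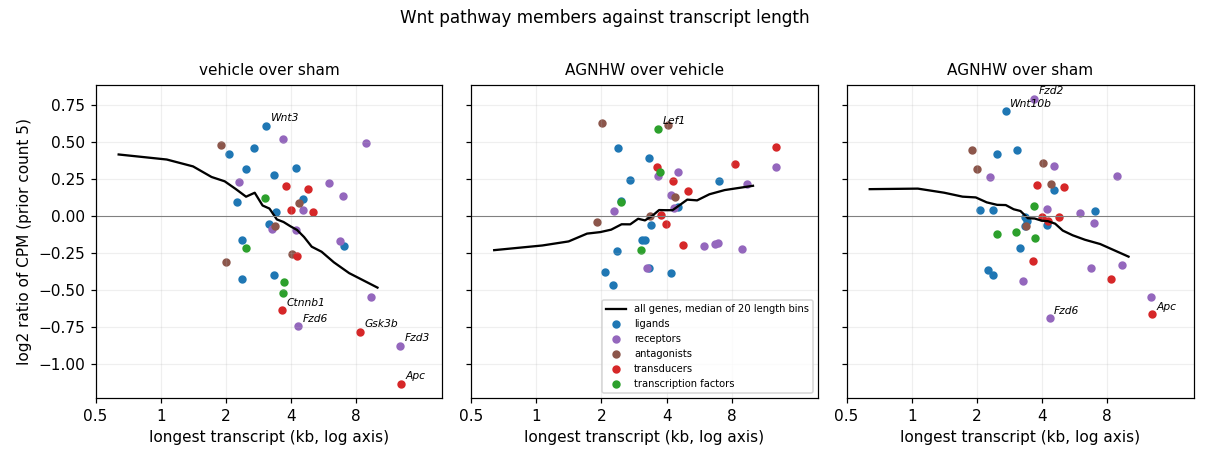
Log2 ratio of each compared member against the length of its longest transcript (log axis, kb), coloured by role, with members past the size rule named. The black line joins the medians of all genes in 20 bins of length, and falls from left to right in vehicle over sham and AGNHW over sham and rises in AGNHW over vehicle. In vehicle over sham, Apc, Fzd3 and Gsk3b lie under the line at the long end, and Ctnnb1 and Fzd6 lie under it at middle lengths.

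The log2 ratios of the members varied with transcript length, as did those of all genes. Over 43 members, Spearman's rho between length and log2 ratio was -0.30 for vehicle over sham, 0.18 for AGNHW over vehicle and -0.24 for AGNHW over sham, against -0.47, 0.38 and -0.37 over 15234 genes. After correction the members' values were 0.30, -0.20 and 0.18. These are across genes of the same libraries and are given as a description. The fitted trend at the members' lengths and GC contents ran from -0.78 to 0.45 on the log2 scale in vehicle over sham. Of the 5 members lower in vehicle, the corrected log2 ratios were -0.66 for Ctnnb1, -0.54 for Fzd6, -0.49 for Apc, -0.29 for Gsk3b and -0.092 for Fzd3, from -0.64, -0.74, -1.13, -0.78 and -0.87 before it.

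Beyond the members, a list of 72 other pathway genes was examined, of which 71 were counted and 69 compared. Between vehicle and sham, 12 were lower and 0 higher. This was 17.4% lower and 0% higher, against 14.2% and 8.66% of all genes. The lower share is near the background. The median log2 ratio was -0.17, against 0.012 for all genes, and -0.087 against -0.018 after correction. The receptor Ror1, which binds Wnt5a, had 30 counts in sham, 8 in vehicle and 28 in AGNHW and was 3.03-fold lower (1.36 to 7.65) in vehicle. Nlk, a kinase that acts on TCF/LEF factors, had 1469 counts in sham, 599 in vehicle and 815 in AGNHW and was 1.98-fold lower (1.80 to 2.18). Ep300, a histone acetyltransferase that works with beta-catenin, had 968 counts in sham, 416 in vehicle and 670 in AGNHW and was 1.88-fold lower (1.67 to 2.11).

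The co-repressor Tle4 had 529 counts in sham, 244 in vehicle and 336 in AGNHW and was 1.75-fold lower (1.5 to 2.05) in vehicle than in sham. Rspo2, a secreted enhancer of Wnt signals, had 211 counts in sham, 97 in vehicle and 99 in AGNHW and was 1.76-fold lower (1.38 to 2.26). Csnk1g3, which phosphorylates Lrp6, had 702 counts in sham, 330 in vehicle and 506 in AGNHW and was 1.72-fold lower (1.51 to 1.97), and Tnks2, which promotes the breakdown of axin, had 1608 counts in sham, 759 in vehicle and 1059 in AGNHW and was 1.71-fold lower (1.57 to 1.87). Lgr4, a receptor of R-spondins, had 317 counts in sham, 158 in vehicle and 229 in AGNHW and was 1.62-fold lower (1.34 to 1.98). The other 4 that were lower had ratios from 0.610 to 0.666. After correction 6 were lower (Ror1, Nlk, Ep300, Tle4, Rspo2 and Ndp) and 1 higher (Vangl1), 8.70% and 1.45% against 7.48% and 4.32% of all genes.

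AGNHW over vehicle had 1 of the 69 other genes higher and 0 lower, 1.45% and 0% against 4.01% and 2.56% of all genes. The median log2 ratio was 0.052, or 0.036 corrected (all genes 0.013 corrected). The higher gene was Ror1, 2.91-fold higher (1.29 to 7.40), with only 8 counts in vehicle, so that this and its call against sham rest on the same low value. After correction 2 were higher (Ror1 and Rspo1) and 2 lower (Lgr6 and Ctnnd1), 2.90% in each direction against 3.4% and 1.52% of all genes. AGNHW over sham had 5 lower and 0 higher, 7.25% and 0% against 5.47% and 3.32% of all genes. The median was -0.10, or -0.028 corrected (all genes -0.0018 corrected). The lower share is near the background. The 5 were Rspo2, 2.07-fold lower (1.62 to 2.65), Nlk, 1.75-fold lower (1.60 to 1.91), Tle4, 1.53-fold lower (1.33 to 1.76), Reck and Tspan12. Reck, through which Wnt7a and Wnt7b signal, was 1.56-fold lower (1.26 to 1.92) and Tspan12, a partner of Fzd4 for norrin, 1.55-fold lower (1.26 to 1.93), and neither passed after correction. Both are known from brain vessels. The 10 endothelial markers summed to 413 CPM in sham and 464 in AGNHW, with 1 higher and 0 lower in AGNHW. Their part in the levels of Reck and Tspan12 was not tested. Rspo2 and Nlk passed also after correction, as did Notum, an enzyme that inactivates Wnts, so that 4.35% were lower against 3.31% of all genes.

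**Figure D5:**
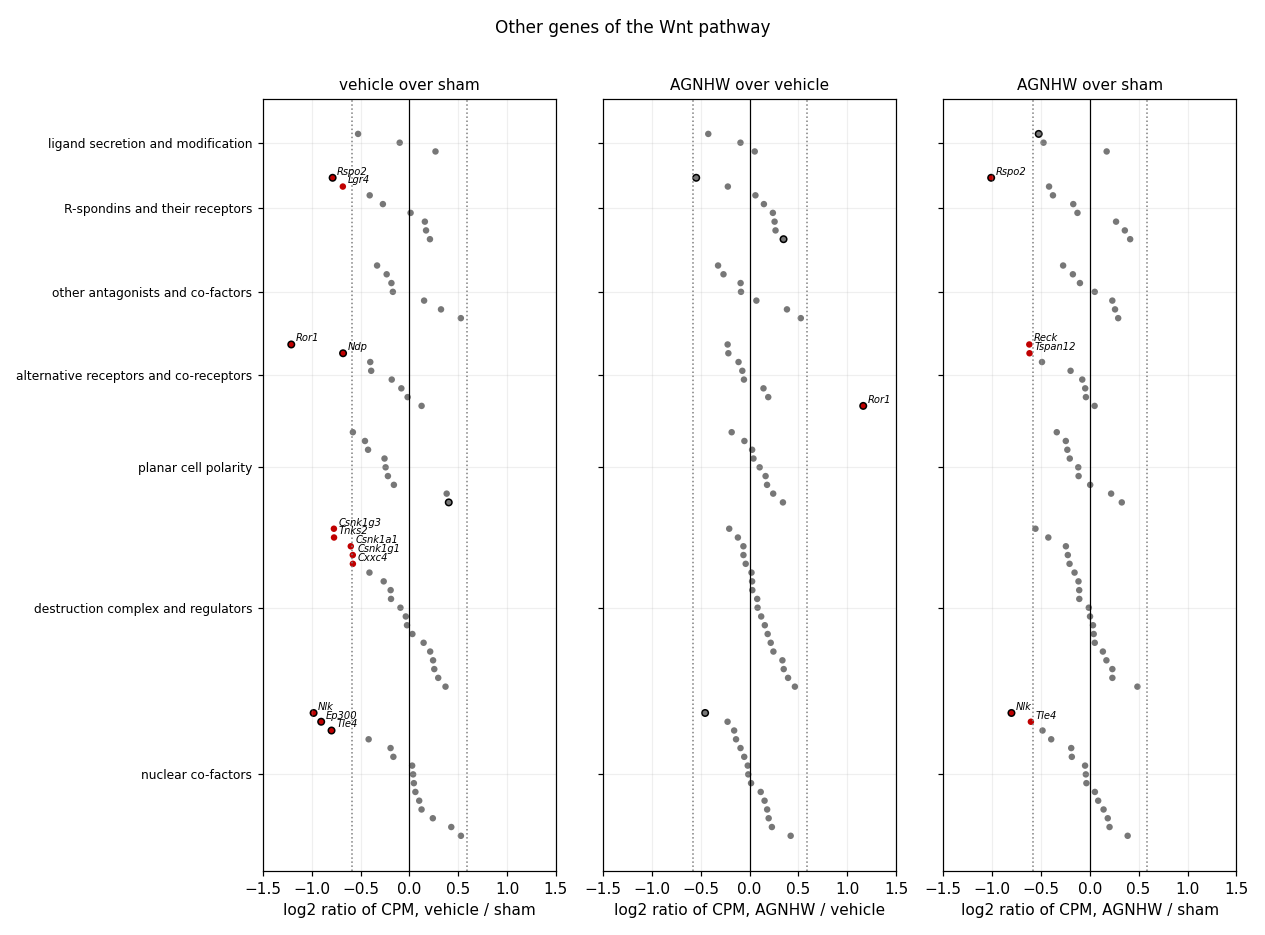
Log2 ratio of TMM-scaled CPM of 69 other pathway genes by subgroup in the 3 comparisons, ordered by ratio within each subgroup. Red points passed the size rule and are named, black rims mark genes that passed after correction for length and GC content, and dotted lines stand at 1.5-fold. Red points lie left of 0 in vehicle over sham and AGNHW over sham, and Ror1 is the 1 red point in AGNHW over vehicle.

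A list of 20 genes often induced by beta-catenin, 18 counted and 17 compared, had 2 or fewer genes past the size rule in each comparison. It holds the members Axin2, Lef1 and Tcf7 and shares others with the list above. Between vehicle and sham 2 were lower and 0 higher, 11.8% and 0% against 14.2% and 8.66% of all genes, and the median log2 ratio of the list was -0.18 against 0.012 for all genes. The lower genes were Tnfrsf19, a receptor of the tumour necrosis factor family, 1.57-fold lower (1.41 to 1.75), and the hyaluronan receptor Cd44, 1.68-fold lower (1.13 to 2.53). After correction Tnfrsf19 and Myc were lower, 11.8% against 7.48% of all genes, and the median was -0.20 against -0.018. Nkd1, a feedback inhibitor like Axin2 that was chosen after its values were seen, had 448 counts in sham, 445 in vehicle and 511 in AGNHW and a vehicle over sham ratio of 1.23 (1.08 to 1.40), on the other side of 1 from Axin2. In AGNHW over vehicle the 1 gene past the rule was Lef1, higher, which is 5.88% of the list against 4.01% of all genes. The median was 0.059, or 0.056 corrected. In AGNHW over sham 2 were lower, Cd44, 1.87-fold lower (1.27 to 2.79), and Tspan12, 11.8% against 5.47% of all genes. With 17 genes compared, 1 gene is 5.88% of the list, and these shares set nothing apart.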

How the data were processed

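The libraries were made from total RNA of brain, per the labels' protocols, and the authors deposited 1 file of whole-number read counts per gene for each of the 3 libraries. The submitters' processing notes name Bowtie2 2.2.3, TopHat2 2.0.12, HTSeq 0.6.0 and build mm9. The strand setting and annotation do not appear in the sources used here. The deposited tables list 17992 symbols, with at least 21 counts over the libraries together. Libraries were grouped by their titles, 1 per group.

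Counts were scaled to CPM with TMM factors (edgeR 4.0.16), which were 1.03 for sham, 0.968 for vehicle and 1.00 for AGNHW. Ratios have exact 95% conditional binomial intervals, and shares within a gene family exact Clopper-Pearson intervals. Reads amplified by PCR are not independent molecules, so these intervals cover counting error only. Log2 ratios add a prior count of 5. With 1 library per group no test across genes was made. For the correction, log2 ratios of genes with a mean of at least 10 CPM were fitted on natural splines (4 degrees of freedom each) of length and GC content of the longest GENCODE M21 transcript, a different build from that of the counts, and the fitted trend was removed from every gene with a length. That includes genes under 10 CPM, and the corrected intervals hold no error of the fit. Genes were matched by symbol. Scripts were tested on simulated data.

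The members and gene lists were chosen with earlier results of these data known. Values in every library are given for members past the size rule before or after correction, for the 3 members of each role with the highest CPM per kb, and for Ctnnb1, Gsk3b, Apc, Lrp5, Lrp6, Lef1 and Axin2. Of the other lists, genes past the rule are named in the text, at most the 8 with the largest absolute log2 ratio per comparison, before or after correction. Any other gene given with values was chosen after its values were seen. Alternatives were library totals, DESeq2 1.42.0 size factors, no minimum CPM or a minimum of 5, a prior count of 1, a ratio of at least 2, and the correction.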

Additional observations from a re-analysis of the deposited data

How the results depend on the processing

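No paired analysis was possible because each group has 1 library, and for the same reason no library could be left out. Under DESeq2 size factors and a prior count of 1, the counts and medians of the members and of the other pathway genes stayed within 1.5 times (counts) or within the interval of the median. With library totals, 0 members were higher in vehicle than in sham, 2 were higher in AGNHW than in vehicle, and the median log2 ratio of the other pathway genes in vehicle over sham was -0.25. Without a minimum of CPM, 1 other pathway gene was lower in AGNHW than in vehicle. With a minimum of 5 CPM, 0 other pathway genes were higher in AGNHW than in vehicle, and 1 member was higher in AGNHW than in sham. With a ratio of at least 2, 1 member (Apc) was lower and 0 higher in vehicle than in sham, 0 were higher in AGNHW than in vehicle, and 0 were higher and 0 lower in AGNHW than in sham. Under that rule 1 other pathway gene was lower in vehicle than in sham and 1 in AGNHW than in sham.

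After correction for length and GC content, 3 members were lower in vehicle than in sham, and the members' median log2 ratio in AGNHW over sham was -0.084. Of the other pathway genes, 1 was higher and 6 lower in vehicle than in sham, 2 higher and 2 lower in AGNHW than in vehicle, and 3 lower in AGNHW than in sham. Of 84 log2 ratios of named members, 20 moved beyond their counting interval under the correction and 4 with library totals, while 0 did under DESeq2 size factors. Why single values moved was not tested beyond this construction. The correction uses 1 transcript per gene from another build than the counts, and genes with few counts, such as Sfrp2, Sfrp4 and Wnt1, are limited by depth.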
